A study of Sus scrofa with 6 samples.

Results

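This report covers the collagen IV, laminin and nidogen genes of the vascular basement membrane in abdominal aorta of Wisconsin Miniature Swine (WMS). Members were the entries of the deposited gene table whose symbol was on a list of 10 names, and 8 of the 22861 genes in that table qualified: COL4A1, COL4A2, LAMA5, LAMB1, LAMB2, LAMC1, NID1 and NID2. The symbols LAMA4 and HSPG2 were not in the table, but a reference table of names pairs each with an identifier that was. These 2 entries are described beside the members, marked as matched by identifier, and are not counted among the 8.

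RNA sequencing compared 2 groups of 11 animals each, which were combined into 3 RNA pools per group. The lesion group (WMS FH, pools 1 to 3) gave aortic tissue with atherosclerotic lesions, and the lesion-free group (WMS normal, pools 4 to 6) gave aortic tissue without them. All pools share tissue and breed. Sex, age, diet and the number of animals in each pool are not given in the labels. Every lesion pool is also a WMS FH pool, so the effects of lesion status and of the WMS FH animals cannot be told apart. A pool is the unit of replication, and p-values measure the spread between pools, not between animals.

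A basement membrane is a thin sheet of matrix that underlies the endothelium and wraps each smooth muscle cell of the arterial wall. Laminin trimers, each of an alpha, a beta and a gamma chain, form one network at the cell surface, and collagen IV, assembled in vessels mostly from the chains of COL4A1 and COL4A2, forms a second one that gives tensile strength. Nidogens and the heparan sulfate proteoglycan perlecan (HSPG2) connect the networks. Cells hold the sheet through integrins, dystroglycan and other receptors.

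The pools held 4650176 to 11442433 counts, the fewest in lesion pool 1. Levels are given in CPM (a gene's count relative to its library total, with libraries balanced by TMM, a trimmed mean of log ratios between libraries). On log2 CPM, lesion pool 1 correlated across genes at 0.778 to 0.851 with the other pools, which correlated at 0.888 to 0.945 among themselves. Lesion pool 1 thus correlated less with the other pools than they did among themselves. Its values were 0.85 and 0.851 with lesion pools 2 and 3 and 0.778 to 0.8 with lesion-free pools. It also had the fewest genes detected, 10754. A floor of 3 counts equalled 0.268 to 0.577 CPM, for counting error only. Of 11673 genes tested with limma, 113 (0.968%) were called higher and 9 (0.0771%) lower in lesion pools at an adjusted p under 0.05, together 1.05%.

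None of the tested basement membrane genes was called changed. Of 7 tested members, 0 were higher and 0 lower (limma, Benjamini-Hochberg adjusted over all genes), and the lowest adjusted p was 0.409, for LAMB1. With a background of 1.05% called, no call among 7 genes is near what the whole table gave. At an unadjusted p under 0.05, 1 of the 7 passed, against 10.6% of all genes tested. The 7 log2 folds ran from -0.60 to 0.75 with a median of 0.12, where all genes tested had a median of 0.00. The 2 entries matched by identifier were not called either. LAMA5 did not pass the filter on low counts. In bulk tissue, fewer cells of a type and less RNA per cell cannot be told apart.

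COL4A1 (ENSSSCG00000009544) and COL4A2 (ENSSSCG00000009545), which encode the chains of the collagen IV network, were not called in either direction. COL4A1 stood at 2655, 4392 and 4055 CPM in lesion pools 1, 2 and 3 and at 1847, 3911 and 4880 CPM in lesion-free pools 4, 5 and 6. The groups overlapped fully, with the lowest and the highest value both in lesion-free pools. The fitted log2 fold was 0.13 (SE 0.36, limma adjusted p = 0.921), and its 95% interval reached from 0.641-fold to 1.88-fold. COL4A2 stood at 3050, 4939 and 5013 CPM in lesion pools and at 4263, 5117 and 6519 CPM in lesion-free pools. Here the lowest pool was lesion pool 1 and the highest lesion-free pool 6. The log2 fold was -0.31 (SE 0.30, limma adjusted p = 0.748), with a 95% interval from 0.514-fold to 1.26-fold, so with all 6 pools a rise of COL4A2 above 1.26-fold lies outside it. Without lesion pool 1 the log2 fold of COL4A2 was -0.06. The fitted COL4A1 difference turned negative without lesion-free pool 4, at a log2 fold of -0.27.

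Among the laminin chains, the fitted folds of LAMB1 and LAMB2 lay on opposite sides of zero, and neither was called. LAMB1 (ENSSSCG00000015444), the beta1 chain, stood at 334, 331 and 424 CPM in lesion pools 1, 2 and 3 and at 132, 239 and 312 CPM in lesion-free pools 4, 5 and 6. Each lesion pool was above each lesion-free pool. LAMB1 was the only 1 of the 7 tested members whose groups did not overlap, a pattern found in 19.4% of all genes tested. Its means were 363 ± 52.9 and 228 ± 90.6 CPM (SD, n = 3 pools each), and the fitted log2 fold of 0.75 (SE 0.32) had an unadjusted p of 0.0316 and a limma adjusted p of 0.409. Without lesion-free pool 4 it was 0.40, and without lesion-free pool 6 it was 1.02.

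LAMB2 (ENSSSCG00000011377), the beta2 chain, which can take the place of beta1 in a trimer, stood at 244, 665 and 477 CPM in lesion pools and at 457, 685 and 847 CPM in lesion-free pools. The groups overlapped, because lesion pools 2 and 3 were above lesion-free pool 4. Its log2 fold was -0.60 (SE 0.36, limma adjusted p = 0.587), with a 95% interval from 0.383-fold to 1.13-fold. Without lesion pool 1, the lowest pool, it was -0.18, and without lesion pool 2 it was -0.91.

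LAMC1 (ENSSSCG00000015555), the gamma1 chain shared by the laminin trimers of vessels, stood at 331, 263 and 289 CPM in lesion pools and at 69.4, 240 and 342 CPM in lesion-free pools. Lesion-free pool 4 was far below the other 5 pools, and lesion-free pool 6 was the highest. The log2 fold of 0.72 (SE 0.49, limma adjusted p = 0.64) was 0.03 without lesion-free pool 4 and 1.19 without lesion-free pool 6. LAMA4, the alpha4 chain of endothelial and muscle laminin, was matched by identifier (ENSSSCG00000004425). It stood at 283, 202 and 208 CPM in lesion pools and 178, 219 and 297 CPM in lesion-free pools, with equal means of 231 CPM. Its log2 fold was 0.01 (SE 0.28, limma adjusted p = 0.993), and the 95% interval from 0.669-fold to 1.52-fold was the narrowest of the laminin chains.

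LAMA5, the alpha5 chain, was close to undetected. Its entry (ENSSSCG00000025584) held 15 counts in lesion pool 2, 15 in lesion-free pool 6, 1 in lesion-free pool 5 and 0 in the other 3 pools. The name reference pairs LAMA5 with another identifier, which was not used here. With 0 counts in 3 pools, no ratio of LAMA5 to LAMA4 was formed. The reference also pairs COL4A1 with another identifier than the entry that carries this symbol.

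HSPG2 and LAMC1 had the widest spread among the lesion-free pools. HSPG2, matched by identifier (ENSSSCG00000003514), stood at 399, 593 and 819 CPM in lesion pools and at 183, 842 and 1368 CPM in lesion-free pools. The lesion-free pools differed by 7.49-fold from lowest to highest and enclosed all 3 lesion pools. The SD of its log2 CPM over lesion-free pools was 1.51, above that of 95.6% of genes tested, and for LAMC1 it was 1.20, above 90.7%. The HSPG2 log2 fold was -0.05 (SE 0.69, limma adjusted p = 0.989), and the 95% interval reached from 0.321-fold to 2.92-fold. Without lesion-free pool 4 it was -0.89, with an unadjusted p of 0.0157 and a limma adjusted p of 0.365 (0.296 to 0.994 over all alternatives run), and without lesion-free pool 6 it was 0.56.

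NID2 (ENSSSCG00000005030), nidogen 2, ranged from 52.5 to 103 CPM in lesion pools and from 43.3 to 102 CPM in lesion-free pools, with a log2 fold of -0.04 (SE 0.36, limma adjusted p = 0.985). NID1 (ENSSSCG00000026819), nidogen 1, had only 25 to 74 counts per pool. Lesion pool 1 was its highest pool, at 14.2 CPM, and the others lay between 2.68 and 7.08 CPM. Its log2 fold of 0.12 (SE 0.72, limma adjusted p = 0.969) had a 95% interval from 0.376-fold to 3.15-fold, so changes between 2.66-fold lower and 3.15-fold higher all lie within it.

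**Figure D1:**
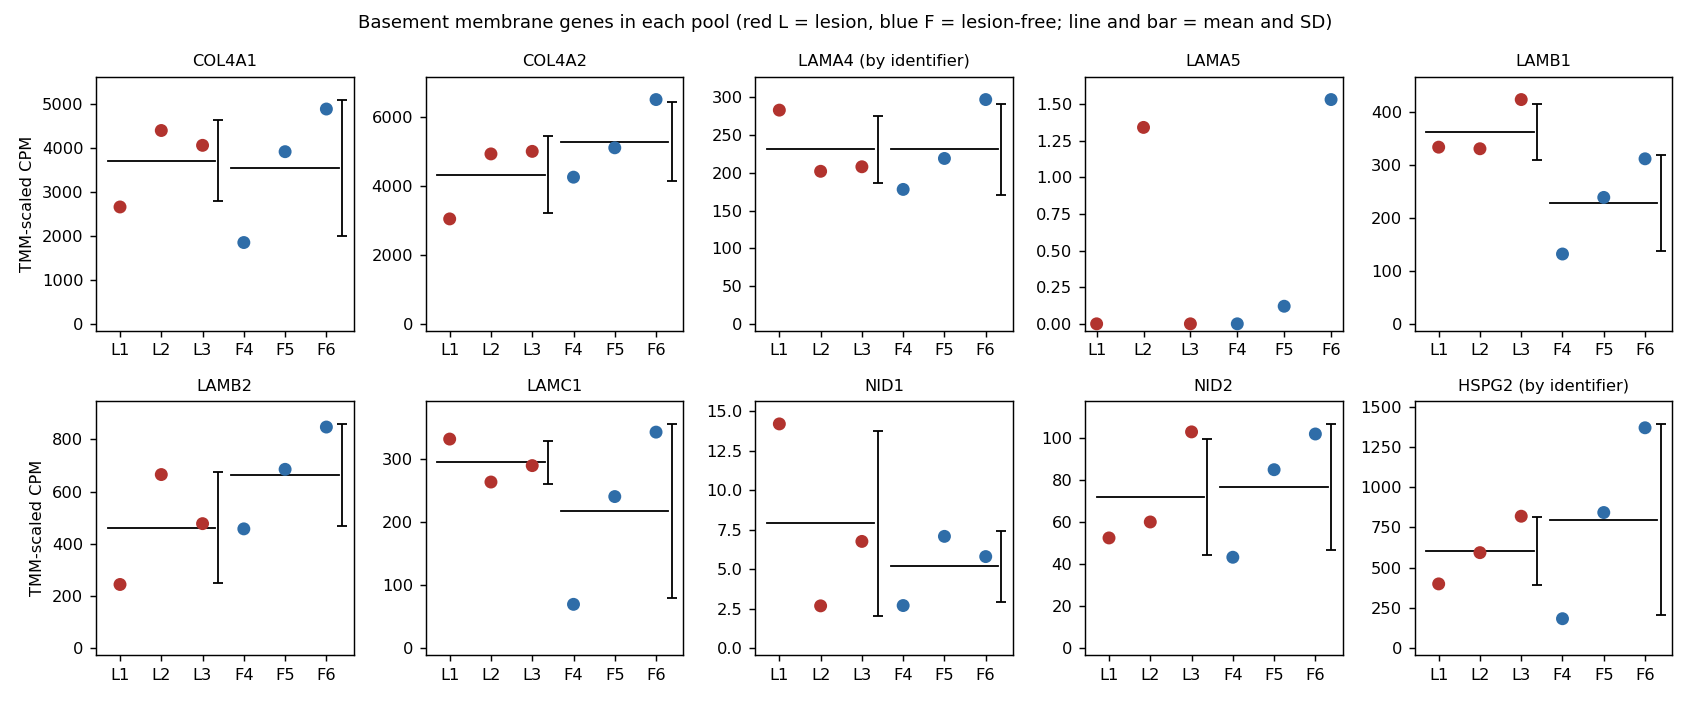
TMM-scaled CPM (vertical axes, 1 per gene) of the 10 listed genes in lesion pools 1 to 3 (red, L) and lesion-free pools 4 to 6 (blue, F). Points are pools, lines are group means and bars are SD (none for LAMA5, which was near 0), and the groups separate without overlap for LAMB1, with 331 to 424 against 132 to 312 CPM.

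**Figure D2:**
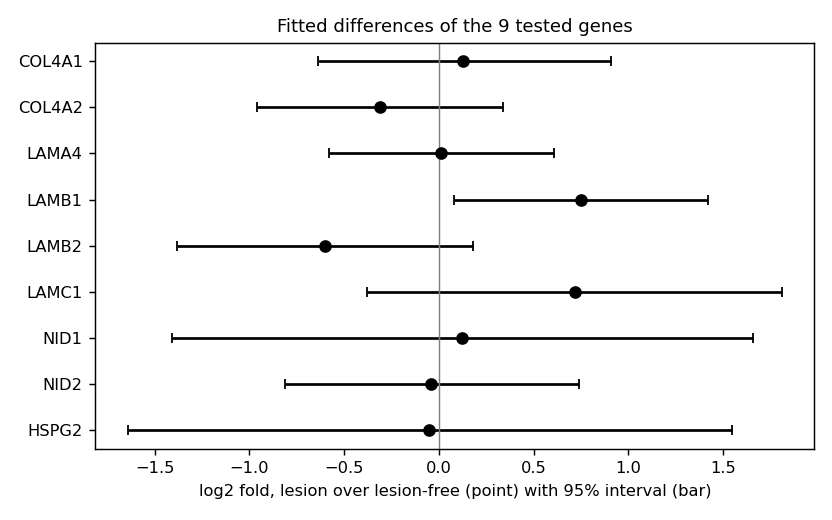
Fitted log2 fold of lesion over lesion-free pools (horizontal axis) for the 9 tested genes, with 95% intervals of the single gene as bars. The interval of LAMB1 starts at 0.08 and those of the other 8 genes include 0.

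The genes shared a pattern over pools that did not follow the groups. Lesion-free pool 4 was the lowest of the 3 lesion-free pools in all 7 tested members and in both entries matched by identifier, while it was the lowest of these 3 in 39.5% of all genes tested. It was the lowest of all 6 pools for 4 of the 7 (COL4A1, LAMB1, LAMC1 and NID2), as well as LAMA4 and HSPG2, against 20.4% of all genes tested. Relative to the mean of lesion-free pools 5 and 6, log2 CPM in pool 4 was lower by 0.44 for COL4A2 and 0.52 for LAMA4, and by 2.04 for LAMC1 and 2.55 for HSPG2. Lesion-free pool 6 was the highest of all 6 pools for 4 of the 7 (COL4A1, COL4A2, LAMB2 and LAMC1), and for LAMA4 and HSPG2, against 12.4% of all genes tested. These patterns were noticed in the data and describe these pools. Pool 4 was the lowest lesion-free pool in 4 of 14 tested endothelial markers, 7 of 15 contractile smooth muscle markers and 4 of 6 pericyte markers. The summed endothelial markers stood at 883, 876 and 817 CPM in lesion-free pools 4, 5 and 6, so that sum was not low in pool 4. The summed pericyte markers were lowest there, at 3515, 4789 and 4652 CPM, and the summed contractile smooth muscle markers highest, at 118328, 103112 and 107405 CPM. RGS5 was the largest part of the pericyte sum, at 1479, 2927 and 2241 CPM in pools 4, 5 and 6. The pericyte markers NOTCH3 (1293, 960 and 1174 CPM in the entry used) and KCNJ8 (27.0, 10.4 and 28.8 CPM) were not lowest in pool 4. Pool 4 was the lowest lesion-free pool in 11 of 19 other basement membrane components, 11 of 18 receptors and 6 of 12 collagen IV assembly genes.

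On the lists, 6 genes had 2 entries each, and in some of them the entries differed in how far pool 4 lay from pools 5 and 6. The pericyte and smooth muscle gene NOTCH3 stood at 92.3, 381 and 490 CPM in lesion-free pools 4, 5 and 6 in the entry with that symbol, and at 1293, 960 and 1174 CPM in the entry matched by identifier (ENSSSCG00000025176). PDGFRB, the platelet-derived growth factor receptor of pericytes and smooth muscle, stood at 27.0, 77.1 and 92.7 CPM in the entry with the symbol and at 210, 222 and 239 CPM in the other (ENSSSCG00000022741). In other genes pool 4 was the lowest lesion-free pool in both entries. DMD, dystrophin, stood at 43.1, 86.6 and 114 CPM and at 0, 4.68 and 3.56 CPM. The matricellular gene SMOC2 stood at 41.6, 43.7 and 71.6 CPM and at 17.7, 18.3 and 22.7 CPM, so pool 4 was close to pool 5. Lesion pool 1 was lower still in both SMOC2 entries, at 22.7 and 14.1 CPM. The endothelial gene MMRN2 was not lowest in pool 4 in either entry, at 44.5, 37.8 and 28.3 CPM and at 1.73, 1.68 and 4.58 CPM, and SOX10 was under 3 CPM in all pools. Whether this bears on the low values of basement membrane genes in pool 4 was not tested.

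Ratios of partner genes within a pool, which do not depend on library scaling, were compared next. The opposed values of LAMB1 and LAMB2 add up in their ratio, which compares read counts and not protein chains. Counts were not corrected for transcript length in any ratio. For each count of LAMB1 there were 0.732, 2.01 and 1.13 counts of LAMB2 in lesion pools 1, 2 and 3, and 3.47, 2.87 and 2.71 in lesion-free pools 4, 5 and 6. All lesion pools were below all lesion-free pools. The mean log2 ratio was 0.24 ± 0.73 in lesion pools and 1.58 ± 0.19 in lesion-free pools (SD, n = 3 pools each), a difference of -1.34, or a 2.53-fold lower ratio. The two-sided exact permutation p was 0.1, the smallest that 3 against 3 pools allow, and 0.200 when adjusted over the 4 ratios computed. The difference was -1.00 without lesion pool 1 and -1.24 without lesion-free pool 4.

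The ratio of COL4A2 to COL4A1 was lower in lesion pools as well. It was 1.15, 1.12 and 1.24 in lesion pools and 2.31, 1.31 and 1.34 in lesion-free pools, again without overlap. The mean log2 ratio differed by -0.45 (two-sided exact permutation p = 0.1, adjusted p = 0.200). Lesion-free pool 4 had the highest ratio, and without it the difference was -0.18. In the RefSeq annotation of the Sscrofa11.1 assembly these genes are neighbours whose spans overlap. Whether the counting used strand is not given in the sources used here, so reads of the shared stretch may be uncertain between them.

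Ratios that involve NID1 did not separate the groups. NID2 had 3.69, 22.4 and 15.3 counts per count of NID1 in lesion pools and 16.0, 12.0 and 17.5 in lesion-free pools, with a log2 difference of -0.47 (two-sided exact permutation p = 0.8, adjusted p = 0.800). Lesion pool 1 set this difference, which was 0.30 without it. The ratio of HSPG2 to NID1 differed by -0.45 (two-sided exact permutation p = 0.7, adjusted p = 0.800), and by 0.40 without lesion pool 1.

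**Figure D3:**
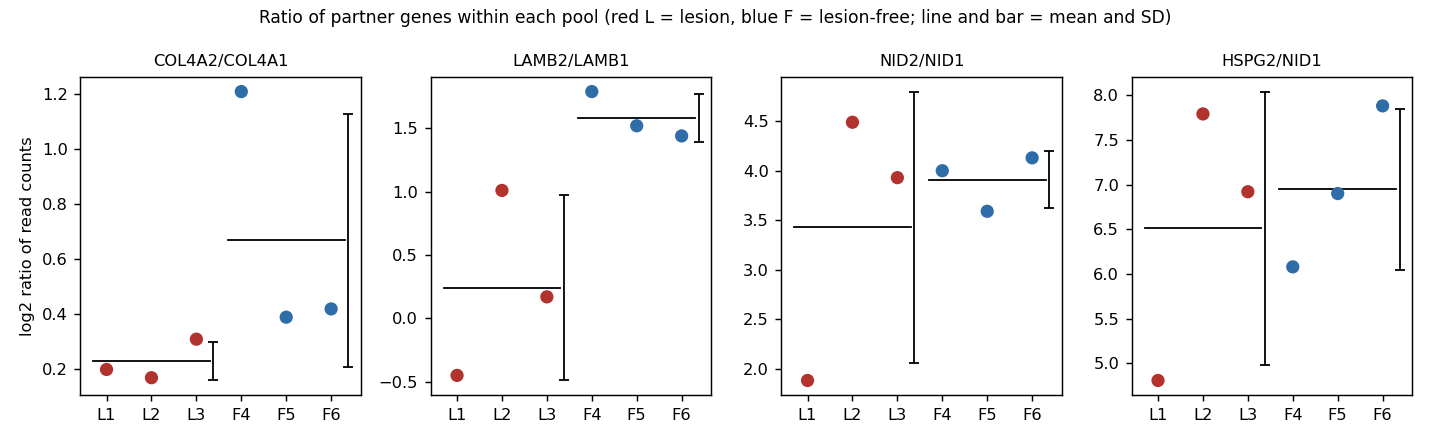
Log2 ratio of read counts of partner genes (vertical axes, 1 per ratio) in lesion pools 1 to 3 (red, L) and lesion-free pools 4 to 6 (blue, F). Points are pools, lines are means and bars are SD; the LAMB2 to LAMB1 ratio lies between -0.45 and 1.01 in lesion pools and between 1.44 and 1.79 in lesion-free pools.

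In the isoform table, 7 of the 8 members had a single isoform with the counts of the gene. For COL4A1, COL4A2, LAMB1, LAMB2, LAMC1, NID1 and NID2, that isoform held exactly the same counts in each pool. The LAMA5 entry was split into isoforms of 30 and 1 counts. No member isoform was called (limma, 0 higher and 0 lower, adjusted over all isoforms tested). Further isoforms bore the names of LAMB1 and NID1 without being part of those gene entries. The further NID1 isoform, with 88 counts in all, had the counts of an entry without a symbol. Its log2 fold was -1.24 (SE 1.63, limma adjusted p = 0.845), against 0.12 for NID1. The further LAMB1 isoforms held 7 and 607 counts. The one of 607 held 76, 114 and 93 counts in lesion pools 1, 2 and 3. In lesion-free pools 4, 5 and 6 it held 139, 79 and 106. Its log2 fold was -0.18 (SE 0.43, limma adjusted p = 0.916), opposite in sign to the 0.75 of LAMB1. The further isoforms were not added to the members.

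No other basement membrane component was called. Of 26 listed genes, 21 were matched and 19 tested. None was called by limma (0 higher and 0 lower), 2 were higher and 1 lower at an unadjusted p under 0.05 (10.6% of all genes tested passed), and the median log2 fold was 0.27 against 0.00 for all genes tested. In 4 of the 19 the pools of both groups lay apart without overlap, against 19.4% of all genes tested. LAMC3, the gamma3 laminin chain, stood at 86.2, 151 and 164 CPM in lesion pools against 58.1, 76.5 and 83.6 CPM in lesion-free pools. Its log2 fold was 0.86 (SE 0.30, limma adjusted p = 0.283). LAMC3 was called, at a log2 fold of 0.94, when pools were weighted by quality (limma adjusted p = 0.0475). Over all alternatives run its adjusted p ran from 0.0179 to 0.562. NTN4, a netrin that binds laminin gamma chains, stood at 75.6, 39.7 and 34.2 against 18.5, 16.3 and 24.7 CPM, with each lesion pool above each lesion-free pool (log2 fold 1.18, limma adjusted p = 0.214). TINAGL1, a tubulointerstitial nephritis antigen relative of the vessel wall, stood at 124, 217 and 222 against 305, 298 and 367 CPM, with each lesion pool below (log2 fold -0.82, limma adjusted p = 0.273). LAMC3, NTN4 and TINAGL1 were chosen after their values were seen.

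The extremes of this list were genes near the detection floor, whose fitted folds depend on the 0.5 added to each count. FREM2, an extracellular matrix protein of epithelial basement membranes, had a log2 fold of 3.21 (SE 1.58, limma adjusted p = 0.497) from at most 6.16 CPM. NTN1, netrin 1, had -1.06 (SE 1.64, limma adjusted p = 0.854) from at most 2.32 CPM. Of the other collagen IV chains, COL4A5 was matched by identifier and stood at 61.0, 53.8 and 62.4 CPM in lesion pools and at 15.5, 72.1 and 84.8 CPM in lesion-free pools. As with COL4A1, its lowest pool was lesion-free pool 4. COL4A6 ranged from 245 to 281 CPM in lesion pools and from 215 to 487 CPM in lesion-free pools. COL4A3 and COL4A4, the chains typical of kidney and lung, did not exceed 2.24 CPM. These 4 collagen chains were likewise named outside the naming rule.

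Among basement membrane receptors, SDC2 lay highest above its error and ITGA3 lowest, but neither was called. Of 20 listed genes, 18 were matched and tested, 0 were called in either direction, and at an unadjusted p under 0.05 1 was higher and 3 were lower, where 10.6% of all genes tested passed in either direction. In 7 of the 18 the pools of both groups lay apart without overlap, against 19.4% of all genes tested. The median log2 fold was 0.25. SDC2, the heparan sulfate proteoglycan syndecan 2, came closest to a call among the receptors. It stood at 390, 177 and 252 CPM in lesion pools and at 125, 89.0 and 116 CPM in lesion-free pools, each lesion pool above each lesion-free pool. Its log2 fold was 1.25 (SE 0.31, limma adjusted p = 0.0776), and it was called with sample quality weights (limma adjusted p = 0.0428), with plain library totals (0.0361) and without lesion pool 2 (0.0191). Over all the alternatives run, its adjusted p ran from 0.0185 to 0.352. DDR2, a collagen receptor kinase, had the largest log2 fold of this list, 1.28 (SE 0.66, limma adjusted p = 0.529), with lesion-free pool 4 at 7.12 CPM and the other pools at 47.1 to 87.2 CPM.

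The 3 receptors lower at an unadjusted p under 0.05 were ITGA3, BCAM and SGCA. ITGA3, an integrin chain that binds laminin, stood at 97.6, 183 and 190 CPM in lesion pools and at 318, 298 and 356 CPM in lesion-free pools (log2 fold -1.09, SE 0.29, limma adjusted p = 0.12). BCAM, the Lutheran glycoprotein that binds the laminin alpha5 chain, stood at 262, 504 and 629 against 804, 831 and 894 CPM (log2 fold -0.96, limma adjusted p = 0.249). SGCA, a sarcoglycan of the dystrophin complex, had the smallest log2 fold of the list, -1.10 (SE 0.35, limma adjusted p = 0.222). In each of these 3 genes every lesion pool was below every lesion-free pool, with lesion pool 1 the lowest. Other laminin-binding integrin chains and dystrophin-complex genes of the list had positive log2 folds, none called, among them ITGA6 at 0.90, SGCB at 0.66, DMD at 0.39 and UTRN at 0.21. ITGB1, the integrin beta chain that pairs with most laminin and collagen binding alpha chains, ranged from 1223 to 1795 CPM in lesion pools and from 1195 to 1527 CPM in lesion-free pools (log2 fold 0.08). SDC2, ITGA3, BCAM, ITGB1, ITGA6, SGCB, DMD and UTRN were chosen after their values were seen.

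Genes of collagen IV synthesis and assembly lay close to zero. Of 20 listed genes, 12 were matched and tested, 0 were called, and 0 passed an unadjusted p under 0.05. The log2 folds ran from -0.24 to 0.64, with a median of 0.02. The limits of this range were PLOD2, a lysyl hydroxylase of collagen (SE 0.32, limma adjusted p = 0.827), and P4HA3, a prolyl hydroxylase subunit at 4.27 to 13.7 CPM (SE 0.50, limma adjusted p = 0.68). SERPINH1, the collagen chaperone named outside the rule, ranged from 236 to 321 CPM in lesion pools and from 264 to 370 CPM in lesion-free pools. PXDN, peroxidasin, which forms the sulfilimine crosslink of collagen IV and was also named outside the rule, ranged from 70.1 to 103 CPM and from 47.9 to 95.7 CPM.

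**Figure D4:**
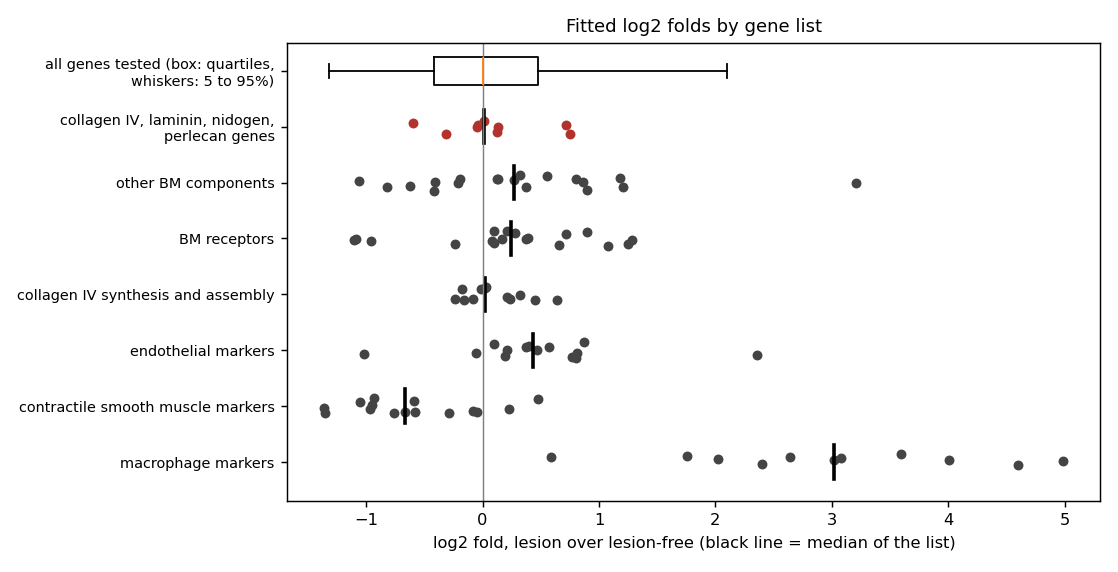
Fitted log2 folds of lesion over lesion-free pools (horizontal axis) for all genes tested (box: quartiles, orange line: median, whiskers: 5 to 95%) and for single genes of 7 lists (points, with the list median as a black line; BM, basement membrane). The 9 tested collagen IV, laminin, nidogen and perlecan genes lie between -0.60 and 0.75 around a median of 0.01, and the macrophage markers lie around 3.02.

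Markers of the cells that make basement membrane differed between the groups in part. Of 15 tested contractile smooth muscle markers, 0 were called higher and 2 lower by limma, against 0.968% and 0.0771% of all genes tested. The 2 called genes were CNN1 (limma adjusted p = 0.0251) and DES (limma adjusted p = 0.0468). The summed level of the list was 50109 to 69844 CPM in lesion pools and 103112 to 118328 CPM in lesion-free pools. ACTA2, smooth muscle actin, stood at 12772 to 15670 CPM in lesion pools and 22293 to 25011 CPM in lesion-free pools (log2 fold -0.76, limma adjusted p = 0.312), and MYH11 was not matched. Of 14 tested endothelial markers, 0 were called, with summed levels of 786 to 1155 CPM in lesion pools and 817 to 883 CPM in lesion-free pools. PECAM1 stood at 264, 334 and 279 against 185, 175 and 153 CPM (log2 fold 0.77, limma adjusted p = 0.234), VWF was at 4.43 CPM in lesion-free pool 4 and at 12.4 to 24.2 CPM elsewhere, and CDH5 was not matched. ESAM, named after its values were seen, lay the other way, at 83.7, 140 and 163 against 230, 251 and 291 CPM. Its log2 fold was -1.02, and its limma adjusted p of 0.149 was the lowest of the list. Of the 14 endothelial log2 folds, 12 were positive and 2 negative. Of 6 tested pericyte markers, 0 were called (3341 to 4016 against 3515 to 4789 CPM). Of 12 adventitial fibroblast markers, 0 were called (1451 to 1774 against 1667 to 2533 CPM), with PDGFRA at 0 counts in lesion-free pool 4.

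Of 11 tested macrophage markers, 7 were called higher and 0 lower, against 0.968% and 0.0771% of all genes tested. The macrophage markers summed to 1207 to 2078 CPM in lesion pools and 187 to 345 CPM in lesion-free pools. CD68, a lysosomal glycoprotein of macrophages, stood at 129 to 372 CPM in lesion pools and 8.85 to 17.6 CPM in lesion-free pools (log2 fold 4.01, limma adjusted p = 0.000644), while CD14 overlapped between groups. CD163 was at 0 counts in 4 of the 6 pools. Adipocyte, nerve, lymphatic and T cell markers were low, at most 104 CPM in sum in any pool, and 0 of them were called. The part of these cell types in the levels of the basement membrane genes was not tested.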

How the data were processed

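The authors deposited read counts per gene and per isoform for the 6 pools, as whole numbers with a comma between groups of digits. The commas were removed. The tools RSEM (version 1.3.0) and edgeR are named, without their roles, per the submitters' processing notes. RNA was purified on columns and sequenced from a TruSeq stranded total RNA library, per the labels' protocols. No source used here names the aligner, genome build or strand setting. RSEM estimates how reads shared by similar genes are divided, an uncertainty the deposited counts do not show.

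Without the commas all values were whole numbers, and they were used as counts. They were fitted with limma 3.58.1 (R 4.3.3), with voom weights and robust moderation on log2 CPM. That fit was chosen in place of a count model. A gene was tested if 3 or more pools reached 1.00 CPM (10 counts in a library of median size) and its counts summed to 15 or more, which 11673 of 22861 genes did. TMM scaling used the totals of tested genes (trims: 30% for M, 5% for A). In the fits, 0.5 was added to every count before logs were taken. Log2 CPM values described outside the fits, such as SDs over pools and differences between pools, had 0.5 added to CPM instead. In the ratios of partner genes nothing was added to the counts, except where an alternative added 0.5 to each count. P-values are two-sided and adjusted over all genes tested. The fit was also run on simulated counts, with the same assumed variability for all genes and no deviating pool. That run cannot show how the fit fares on pools like these. No pool repeated another: within a group, the chi-square of 2 pools divided by its degrees of freedom was 23.7 to 105. The 14 alternatives changed scaling, filter, weights, moderation or the pools used.

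The members and all lists were chosen with earlier results of these data known. Among the names on 3 pathway and 9 cell type lists, 118 were matched by symbol, 17 by identifier and 3 by synonym, and 28 were not matched. For a name with several entries, the entry of highest mean CPM was used. The assembly list also holds TANGO2, whose role in collagen export is not established. The rule for naming genes took all 10 listed members, every called pathway gene, the largest and smallest log2 fold of each pathway list, and the first genes of the cell type lists.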

Additional observations from a re-analysis of the deposited data

How the results depend on the processing

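The counts of members called higher and lower were 0 under all 14 alternatives. No member's adjusted p fell under 0.284. Some log2 folds changed sign, and not only those near zero. With plain library totals, which raised the median of all genes tested by 0.16, NID2 was 0.15 and HSPG2 0.14. With sample quality weights NID1 was -0.44 and LAMA4 -0.23. Leaving out lesion pool 1 and lesion-free pool 4 together, an alternative chosen after seeing the data, gave COL4A1 -0.05, LAMC1 -0.05, NID1 -0.58, LAMA4 -0.31 and an NID2 to NID1 log2 ratio of 0.35. With all pools, LAMC1 was at 0.72 and that ratio at -0.47.

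Leaving out 1 pool at a time gave log2 folds of -0.27 to 0.42 for COL4A1, -0.45 to -0.06 for COL4A2, -0.32 to 0.87 for NID1, -0.40 to 0.22 for NID2, -0.17 to 0.21 for LAMA4 and -0.89 to 0.56 for HSPG2. For LAMB1, LAMB2 and LAMC1 the ranges were 0.40 to 1.02, -0.91 to -0.18 and 0.03 to 1.19. The members' median ran from -0.32 to 0.29, the NID2 to NID1 log2 ratio from -1.00 to 0.30, and HSPG2 to NID1 from -1.09 to 0.40. LAMB1, LAMB2, COL4A2 and the LAMB2 to LAMB1 and COL4A2 to COL4A1 ratios kept their sign in every alternative run. The cause of the sign changes was not tested.

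Genes called higher numbered 54 to 143 and lower 3 to 33 when 1 pool was left out. They numbered 171 and 17 without a filter on low counts, 213 and 40 with sample quality weights, and 189 and 59 without the 2 pools. Among receptors 0 to 1 was higher when 1 pool was left out. With plain library totals, with quality weights and without the 2 pools, 1 receptor was higher, each time SDC2. Among other components 1, LAMC3, was higher with quality weights and without the 2 pools. With 3 pools per group, intervals as wide as those of HSPG2 and NID1 limit what these data can show.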
